A study of Mus musculus with 18 samples.

Results

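The comparison described here is the first 45 min of mRNA decay in mouse macrophages that lack tristetraprolin (TTP, the product of Zfp36). Its members are the 6 arrays labelled TTP-/- at 45 min and at 0 min (3 each, called KO 45 min and KO 0 min), of 18 arrays in all, and the 6 wild-type (WT) arrays at the same times are set beside them. All groups were macrophages differentiated from C57Bl/6 bone marrow in medium with M-CSF, the growth factor of this lineage. All were given LPS, the bacterial activator of Toll-like receptor 4, for 3 h, followed by fresh medium with actinomycin D, which stops transcription, and SB203580, which inhibits the kinase p38. RNA was taken at 0, 45 or 90 min after that change of medium, so time without transcription and time with the p38 inhibitor are 1 variable. The knockout is carried by every cell of the animal, and neither the age of the mice nor their number is given in the sources used here.

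TTP binds AU-rich elements in the 3' untranslated regions of short-lived mRNAs and brings in the deadenylase complex that starts their decay. The kinase p38 restrains TTP through phosphorylation, and the inhibitor was added for that reason. Macrophages without TTP keep inflammatory mRNAs such as that of TNF for longer after LPS. Other decay routes remain in these cells: the paralogs of TTP, other proteins that bind AU-rich or structured elements, and the general deadenylation machinery all act without it. What a lower signal at 45 min owes to the transcription block and what to the p38 inhibitor cannot be told apart.

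Signals are intensities made comparable between arrays by RMA, the authors' normalization. A change is the difference of log2 intensities at 45 min and at 0 min and is measured against the average mRNA, so that a general loss of RNA is not visible. Fewer cells and less RNA per cell likewise cannot be told apart. Of 19454 genes, the 10258 whose highest group mean reached a log2 intensity of 3.03 were tested. Correlations within the groups were 0.966 to 0.986 at KO 45 min and 0.963 to 0.989 at KO 0 min. All 12 macrophage markers were above the signal limit, with a summed intensity of 12799 to 14896 at KO 45 min and 12946 to 15820 at KO 0 min. Below it lay 10 of 11 neutrophil, 9 of 10 T and NK cell, 9 of 9 B cell and 7 of 9 dendritic cell markers, Ly6g, Elane, Cd3e, Cd79a and Flt3 among them. Fibroblast markers were above the limit for 7 of 10 genes, with Pdgfra, Dcn and Lum below it, and their sum was 93.7 to 112 at KO 45 min and 80.3 to 99.4 at KO 0 min. All 7 were above 0, with a median change of 0.24, and none passed the test (0.23, with 5 of 7 above 0, without KO replicate 2). For 4 of the 7 all KO 45 min arrays lay above all KO 0 min arrays, as they did for 541 of the 10258 tested genes. Of 4 erythroid markers on the array Alas2, Klf1 and Epor were below the limit, and Tfrc, the transferrin receptor, was above it, with a change of -0.25 ± 0.18 (adjusted p 0.797; -0.30 without KO replicate 2). The erythroid sum, with Tfrc its only member above the limit, was 209 to 252 at KO 45 min and 256 to 302 at KO 0 min. These sums did not overlap, and 7.89% of all tested genes were likewise lower at KO 45 min without overlap. The part of these markers in the results was not tested.

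The libraries labelled KO 45 min replicate 2 and KO 90 min replicate 2 stood apart, because their order in time ran against the labels. This was seen over 143 mRNAs chosen on WT arrays only, those lower at 90 min than at 0 min in all 3 WT pairs with a mean log2 change of -1 or below. In KO replicate 1 the 90 min signal was below the 45 min signal for 124 of these 143 mRNAs, and in KO replicate 3 for 130. In the libraries labelled replicate 2 it was below for 8 of 143. In the WT series, on which the genes were chosen, it was below for 141, 137 and 130. From 0 to 45 min the median log2 change was -0.55 in KO replicate 1, -1.15 in the libraries labelled replicate 2 and -0.68 in replicate 3. From 0 to 90 min it was -1.12, -0.50 and -1.26. In size, the change of the library labelled KO 45 min replicate 2 thus lay near the 90 min changes of the other replicates, and that of the library labelled KO 90 min replicate 2 lay near their 45 min changes. The labels were kept as given, the cause was not tested, and values without replicate 2 of the KO are given beside the main ones.

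**Figure D1:**
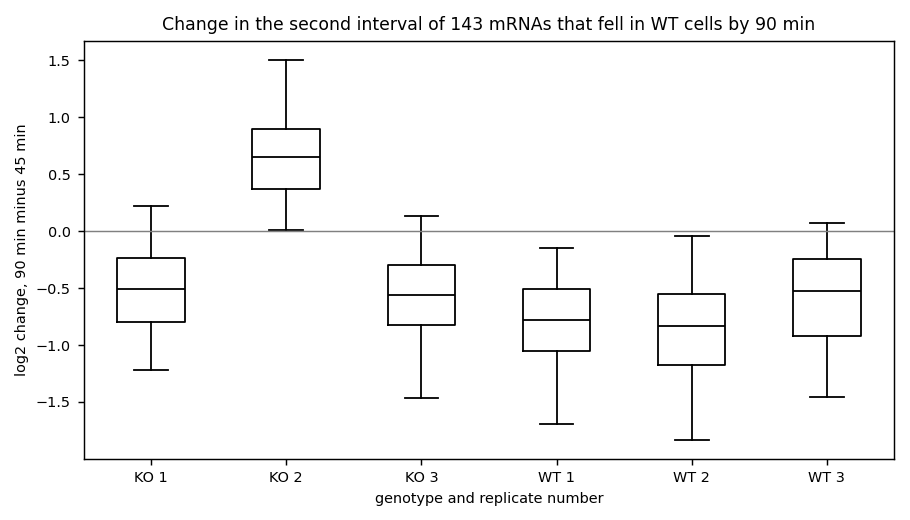
Log2 change of 143 mRNAs from 45 to 90 min in each labelled replicate of KO and WT cells. Lines in the boxes are medians, boxes span the middle 50% and whiskers the 5th to 95th percentile of mRNAs. The median was -0.51 in KO replicate 1, 0.65 in the libraries labelled KO replicate 2 and -0.56 in KO replicate 3, and -0.78, -0.83 and -0.53 in WT replicates 1, 2 and 3.

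The comparison asks which mRNAs are lower 45 min after the change of medium when TTP is absent. Of the 10258 genes, 26 fell (0.253%) and none rose (0.0%) by limma with the replicate number as a block and Benjamini-Hochberg adjustment at 0.05. At an unadjusted p below 0.05, 598 were lower and 238 higher. The 26 comprised 24 genes with established names and 2 with provisional ones. Their log2 changes ran from -2.90 to -0.76 with a median of -1.42, while the median of all tested genes was -0.01. Between 13.4% and 59.1% of the 0 min signal remained. The 3 KO 45 min arrays all lay below the 3 KO 0 min arrays for 22 of the 26, as they did for 7.89% of all tested genes. The 26 were chosen on these same arrays, so their separation follows in part from the choice and is no added support. No tested gene was higher by a log2 of 1 or more, and 59 were lower by that much.

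The number of genes called moved with the arrays used. With KO replicate 2 left out at all times, 4 genes fell (0.039%), namely Dusp2, Dusp1, Clec2d and Tnfaip3. Over the 18 omissions of a single array, the calls of these 4 held in 18, 13, 17 and 9. The call of Gadd45b, which is not among the 4, held in all 18. In a fit to the 6 KO arrays of replicates 1 and 3 alone, 41 fell (0.4%), among them 18 of the 26, and 1 rose, Nlrc5, a regulator of MHC class I genes. Without KO replicate 2 and also without WT 0 min replicate 3, the array farthest from its group mean among all 18, 26 genes fell, of which 19 were shared with the first list. In the fit to the 9 KO arrays, 128 fell (1.25%), including all 26, and 9 rose (0.0877%). The fit with no block found 5 genes, and the fit with the block within each genotype found 11. Over the 26 genes the median change was -1.17, -1.54 and -1.38 in pairs 1, 2 and 3, and pair 2 held the largest fall for 19 of them. The mean of pairs 1 and 3 ranged from -2.66 to -0.72 with a median of -1.32, and the arrays of these pairs did not overlap for 23 of the 26, against 16.5% of all tested genes. These arrays also entered the choice of the 26, so their separation is not independent of it. For no gene of the 26 did leaving out pair 2 move the fold by over 1.5 times.

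**Figure D2:**
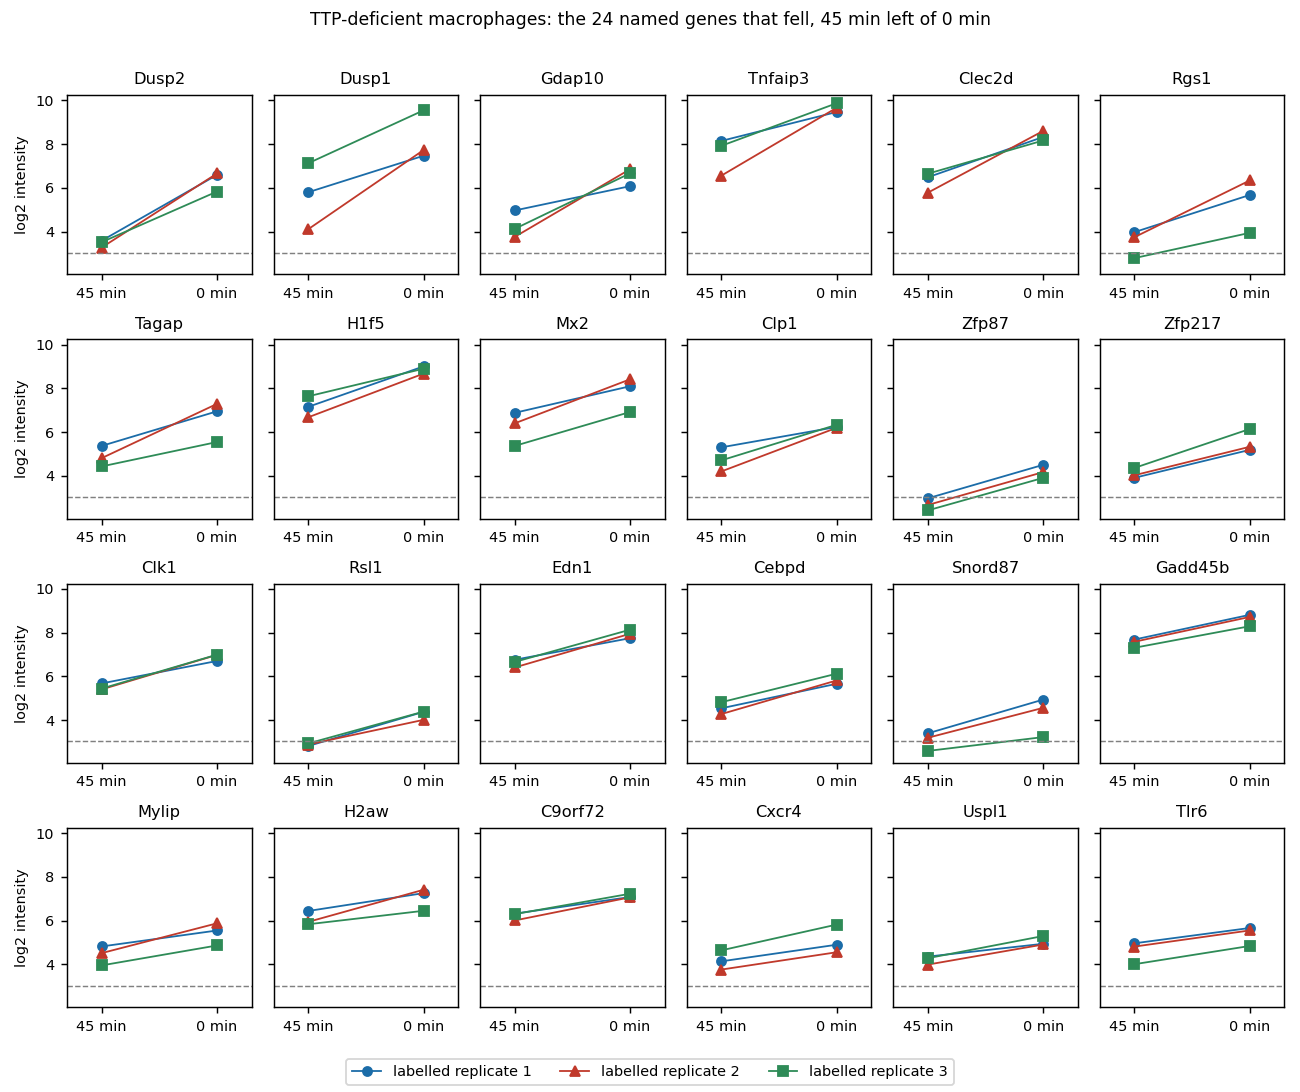
Log2 intensity of the 24 named genes that fell, for each KO array, with 45 min left of 0 min and same-numbered arrays joined by a line. The dashed line marks the signal limit of 3.03. Every line slopes downward toward 45 min. All 45 min points of Zfp87 and Rsl1 lie below the limit, as do the replicate 3 points of Rgs1 and Snord87 at 45 min.

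Zfp36, the gene targeted in these mice, had intensities of 47.8, 34.4 and 41.1 at KO 45 min, against 76.2, 108 and 112 at KO 0 min. The groups did not overlap, and the log2 change of -1.26 ± 0.29 (SE, n = 3 pairs) did not pass the test across all genes (adjusted p 0.0935). Without KO replicate 2 it was -1.06 ± 0.26 with an adjusted p of 0.448. In WT cells the same row measured 29.0, 30.6 and 22.2 at 45 min, against 247, 232 and 139 at 0 min, a change of -2.89 ± 0.29 on the log2 scale (adjusted p 5.99e-05). The part of Zfp36 deleted in the mice was not identified here, so that the KO signal does not check the genotype labels.

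Among mRNAs whose proteins damp signalling, Dusp2 and Dusp1 fell the most and led the whole list. Dusp2, a nuclear phosphatase that inactivates MAP kinases, measured 11.98, 9.65 and 11.4 at KO 45 min, against 96.6, 101 and 56.95 at KO 0 min. All 45 min arrays were far below all 0 min arrays, and the log2 change was -2.90 ± 0.27 (SE, n = 3 pairs, adjusted p 8.55e-05). Without KO replicate 2 the change of Dusp2 was -2.66 ± 0.35 (adjusted p 0.0208), and its call held in all 18 omissions of a single array. Dusp1, the phosphatase that switches off p38 and JNK, had intensities of 55.7, 17.2 and 140 at KO 45 min, against 177, 212 and 747 at KO 0 min. The lowest value belonged to the library labelled replicate 2, and the groups did not overlap. Dusp1 changed by -2.57 ± 0.45 (adjusted p 0.0270), and by -2.05 ± 0.31 without KO replicate 2 (adjusted p 0.0422).

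Tnfaip3 encodes A20, the ubiquitin-editing brake on NF-kB. Its intensity was 283, 94.2 and 242 at KO 45 min, against 709, 810 and 936 at KO 0 min. It changed by -2.13 ± 0.39 (adjusted p 0.0316), leaving 22.9% of its signal, and by -1.64 ± 0.24 without KO replicate 2 (adjusted p 0.0399). Gadd45b, a stress protein that binds the kinase MKK7 and the p38 activator MTK1, measured 206, 192 and 159 at KO 45 min, against 451, 422 and 314 at KO 0 min, a change of -1.08 ± 0.14 (adjusted p 0.00256). Its change was -1.13, -1.14 and -0.99 in pairs 1, 2 and 3. Without KO replicate 2 Gadd45b changed by -1.06 ± 0.18 with an adjusted p of 0.0837, and the 6-array fit to replicates 1 and 3 gave 0.0224.

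Rgs1 and Tagap were also among the genes that fell. Rgs1, which speeds GTP hydrolysis by G-protein alpha subunits behind chemokine receptors, measured 15.7, 13.4 and 6.91 at KO 45 min, against 51.1, 81.0 and 15.4 at KO 0 min. Replicate 3 was low at both times, so the groups overlapped although each pair was lower at 45 min. The change was -1.82 ± 0.34 (adjusted p 0.0316), and -1.43 ± 0.41 without KO replicate 2 (adjusted p 0.655). Tagap, first described in activated T cells, had 41.4, 28.1 and 21.6 at KO 45 min, against 124, 157 and 46.8 at KO 0 min. It changed by -1.73 ± 0.30 (adjusted p 0.0270), with a change of -1.35 ± 0.24 and an adjusted p of 0.0992 without KO replicate 2.

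Surface and secreted proteins formed the next group. Clec2d, a lectin that serves as ligand of an inhibitory receptor on NK cells, measured 89.5, 54.9 and 100 at KO 45 min, against 321, 389 and 287 at KO 0 min. Clec2d changed by -2.06 ± 0.27 (adjusted p 0.00298), and by -1.68 ± 0.21 without KO replicate 2 (adjusted p 0.0208). Edn1, the precursor of the vasoconstrictor endothelin-1, measured 108, 85.0 and 101 at KO 45 min, against 215, 247 and 281 at KO 0 min. Its arrays did not overlap, and the change was -1.33 ± 0.25 (adjusted p 0.0316).

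Cxcr4, the receptor of the chemokine CXCL12, had 17.6, 13.6 and 24.97 at KO 45 min, against 29.9, 23.5 and 56.6 at KO 0 min. Its groups overlapped, because replicate 3 was the highest at both times, and the change was -0.91 ± 0.18 (adjusted p 0.0386). Tlr6, which pairs with TLR2 to sense bacterial lipopeptides, measured 31.2, 28.2 and 16.1 at KO 45 min, against 50.8, 47.0 and 28.7 at KO 0 min. Replicate 3 was the lowest at both times, so the groups overlapped, and the 3 pairs differed by -0.70, -0.74 and -0.83. Tlr6 had the smallest change of the named genes, -0.76 ± 0.15 (adjusted p 0.0441). Leaving out KO replicate 2 gave changes of -1.23, -0.97 and -0.77 for Edn1, Cxcr4 and Tlr6, with adjusted p-values of 0.137, 0.379 and 0.454. Mx2, an antiviral GTPase induced by interferon, measured 118, 84.6 and 41.4 at KO 45 min, against 274, 342 and 121 at KO 0 min. Mx2 changed by -1.59 ± 0.24 (adjusted p 0.0126), and by -1.38 ± 0.30 without KO replicate 2 (adjusted p 0.271).

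Transcription factors and histones were also represented. Cebpd, a factor that amplifies the late response to LPS, measured 23.3, 19.4 and 28.2 at KO 45 min, against 50.7, 56.3 and 69.8 at KO 0 min. It changed by -1.32 ± 0.24 (adjusted p 0.0282). Zfp217, a zinc finger protein found in repressor complexes, measured 15.04, 16.3 and 20.6 at KO 45 min, against 36.5, 40.2 and 70.7 at KO 0 min. Here the library labelled replicate 2 lay between the other 2 at 45 min, and the change was -1.45 ± 0.26 with all pairs and -1.53 ± 0.31 without KO replicate 2 (adjusted p 0.0270 and 0.180).

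Zfp87 had 7.86, 6.36 and 5.36 at KO 45 min, against 22.7, 18.04 and 15.02 at KO 0 min, and Rsl1, a KRAB zinc finger repressor of sex-dependent liver genes, behaved alike. Rsl1 measured 7.04, 7.39 and 7.64 at KO 45 min, against 20.8, 16.1 and 21.0 at KO 0 min. All 6 of these 45 min values lay below the signal limit of 8.16 in intensity. The changes were -1.51 ± 0.25 and -1.38 ± 0.22 (adjusted p 0.0266 and 0.0224), and whether changes that end below that limit understate the loss was not tested. H1f5, a linker histone, measured 143, 102 and 199 at KO 45 min, against 514, 409 and 478 at KO 0 min. It changed by -1.70 ± 0.33 (adjusted p 0.0386). H2aw, a core histone of the H2A family, measured 87.0, 61.5 and 57.1 at KO 45 min, against 153, 170 and 87.5 at KO 0 min, a change of -0.97 ± 0.19 (adjusted p 0.0462). The changes without KO replicate 2 were -1.21 for Cebpd, -1.51 for Zfp87, -1.51 for Rsl1, -1.56 for H1f5 and -0.72 for H2aw, with adjusted p-values of 0.106, 0.343, 0.137, 0.1004 and 0.519.

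Genes of RNA processing were represented by Clk1, Clp1 and Snord87. Clk1, a kinase that phosphorylates SR splicing factors, measured 51.2, 42.4 and 43.5 at KO 45 min, against 104, 127 and 128 at KO 0 min. The 3 arrays at 45 min lay close together and well below those at 0 min, and Clk1 changed by -1.39 ± 0.24 (adjusted p 0.0270). Clp1, an RNA kinase of the tRNA splicing and 3' end processing complexes, measured 39.5, 18.4 and 26.1 at KO 45 min, against 75.4, 73.5 and 80.8 at KO 0 min. Clp1 changed by -1.52 ± 0.29 (adjusted p 0.0386). Snord87 is a small nucleolar RNA gene, which the probes may not tell apart from its host transcript. It measured 10.5, 9.16 and 6.03 at KO 45 min, against 30.7, 23.6 and 9.35 at KO 0 min, with overlap between the groups (change -1.18 ± 0.23, adjusted p 0.0441). Clk1, Clp1 and Snord87 changed, without KO replicate 2, by -1.29, -1.28 and -1.09, with adjusted p-values of 0.406, 0.1004 and 0.619.

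Of the other 4 named genes, Gdap10 had the largest change. It measured 31.3, 13.5 and 17.5 at KO 45 min, against 67.6, 116 and 102 at KO 0 min (log2 change -2.25 ± 0.42, adjusted p 0.0316), and its pairs ranged from -3.10 to -1.11. Mylip, the ubiquitin ligase that marks the LDL receptor for degradation, measured 28.3, 22.9 and 15.5 at KO 45 min, against 46.9, 58.9 and 29.2 at KO 0 min, and changed by -1.001 ± 0.19 (adjusted p 0.0316). C9orf72, which acts in autophagy and endolysosomal traffic, measured 80.0, 64.5 and 78.8 at KO 45 min, against 135, 134 and 150 at KO 0 min. The 3 values at 0 min were close together and above every value at 45 min, and the change was -0.92 ± 0.17 (adjusted p 0.0372). Uspl1, a protease that acts on SUMO, measured 20.5, 15.9 and 19.5 at KO 45 min, against 30.8, 30.1 and 39.4 at KO 0 min, and changed by -0.84 ± 0.15 (adjusted p 0.0316). When KO replicate 2 was left out the changes were -1.83, -0.82, -0.85 and -0.80 for Gdap10, Mylip, C9orf72 and Uspl1, with adjusted p-values of 0.379, 0.655, 0.453 and 0.454.

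Plk2 and Socs3, list members outside the 26, had large changes with pairs that differed widely. Plk2, a stress-induced kinase, measured 81.1, 28.8 and 48.8 at KO 45 min, against 201, 191 and 136 at KO 0 min (change -1.84 ± 0.41, adjusted p 0.0857). Socs3, the feedback inhibitor of cytokine receptors, measured 134, 47.2 and 202 at KO 45 min, against 306, 343 and 596 at KO 0 min (change -1.87 ± 0.46, adjusted p 0.131). For both, the library labelled KO 45 min replicate 2 was the lowest of the 6 arrays. Leaving out KO replicate 2 gave changes of -1.39 and -1.38, which did not pass in the fit to the other arrays (adjusted p 0.0992 and 0.222) and passed in the 6-array fit to replicates 1 and 3 (adjusted p 0.00262 and 0.00365).

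Reported TTP targets are mRNAs described elsewhere as bound or destabilised by TTP. Tnf, the cytokine gene best known as its target, had intensities of 3388, 2847 and 3557 at KO 45 min, against 3925, 4211 and 4391 at KO 0 min. The groups did not overlap, the change was -0.36 ± 0.17, and it did not pass the test (adjusted p 0.638; -0.26 ± 0.21 and 0.988 without KO replicate 2). In WT cells Tnf measured 845, 808 and 514 at 45 min, against 3501, 3810 and 3657 at 0 min, a change of -2.37 ± 0.17 (adjusted p 1.99e-06). The difference between the early changes in KO and in WT was tested over all 18 arrays without a block. Tnf alone of the 10258 genes passed (0.00975%), with a difference of 2.01 ± 0.26 (95% interval 1.47 to 2.55, adjusted p 0.00472). Unadjusted, 74 genes were higher and 113 lower at p below 0.05. The difference for Tnf was 2.11 ± 0.29 without KO replicate 2 (adjusted p 0.0401). When the arrays were centred on ribosomal protein or housekeeping genes it was 1.85 and 1.84, no longer past the threshold (adjusted p 0.293 and 0.740). These centrings moved the median of all genes in this difference by -0.16 and -0.18 on the log2 scale.

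The neutrophil attractants Cxcl1 and Cxcl2 did not pass the test in KO cells. Cxcl1 measured 570, 486 and 1120 at KO 45 min, against 653, 555 and 1108 at KO 0 min, and Cxcl2 measured 1731, 2169 and 2016 at KO 45 min, against 2122, 2111 and 1913 at KO 0 min. The groups overlapped for both genes, with changes of -0.12 ± 0.23 and -0.06 ± 0.20 (adjusted p 0.931 and 0.962). In WT cells they changed by -1.68 ± 0.23 and -1.26 ± 0.20 (adjusted p 0.00202 and 0.00948), and the differences of 1.55 and 1.20 between the genotypes did not pass. Il10, the anti-inflammatory cytokine gene, measured 36.9, 59.5 and 139 at KO 45 min, against 76.5, 92.5 and 214 at KO 0 min. Replicate 3 was the highest at both times and the groups overlapped, with a change of -0.77 ± 0.25 (adjusted p 0.331) beside a change of -2.46 ± 0.25 in WT (adjusted p 5.99e-05). In the limma fit to the 9 KO arrays alone Il10 passed (adjusted p 0.0396). Csf2, which encodes the growth factor GM-CSF, measured 12.9, 8.14 and 13.4 at KO 45 min, against 34.3, 26.1 and 13.9 at KO 0 min. Its groups did not overlap, and its change was -1.05 ± 0.28 in KO (adjusted p 0.178) and -2.12 ± 0.28 in WT (adjusted p 0.00157), and its KO 45 min signals lie near the limit. Il6 changed by -0.36 ± 0.29 in KO (adjusted p 0.828) and by -1.01 ± 0.29 in WT (adjusted p 0.342). The KO changes without replicate 2 were -0.09, -0.11, -0.84, -0.74 and -0.36 for Cxcl1, Cxcl2, Il10, Csf2 and Il6, each with an adjusted p of 0.988, and the genotype differences of Cxcl1 and Cxcl2 were then 1.59 and 1.15. Of all tested genes 52.2% were below 0 in KO cells and 0.253% fell in the fit to all 18 arrays. Of the 21 reported targets tested, 18 were below 0 in KO cells with a list median of -0.28. Dusp1 was the 1 target that fell in that fit. Leaving out KO replicate 2, these values were 18, -0.26 and again 1.

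**Figure D3:**
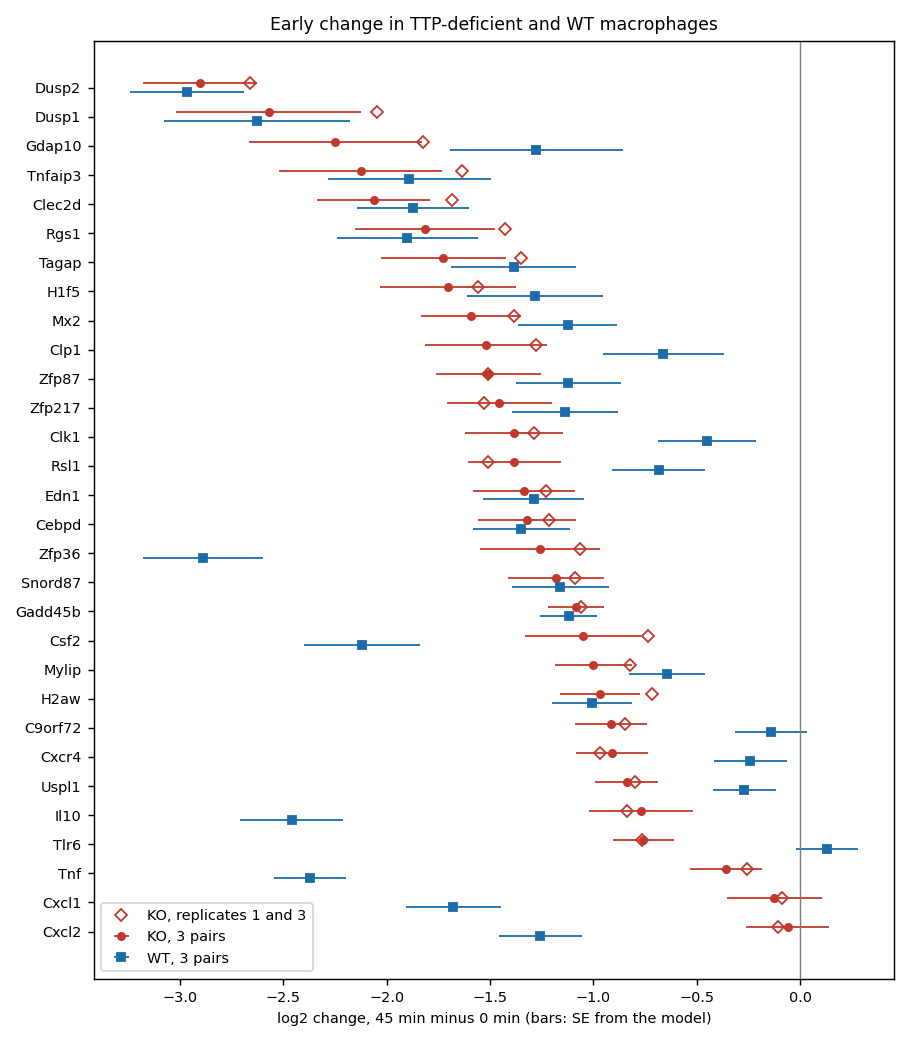
Log2 change from 0 to 45 min of the 24 named genes that fell in KO cells and of Zfp36, Tnf, Il10, Csf2, Cxcl1 and Cxcl2, in KO cells (circles) and WT cells (squares), with SE from the model; open diamonds give KO cells without replicate 2. For Tnf the KO and WT changes were -0.36 and -2.37, while for Dusp2 they were -2.90 and -2.97.

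In WT cells 25 genes fell over the same interval (0.244%) and 1 rose, Rbis, a ribosome biogenesis factor. The KO and WT lists shared 9 genes, which is 34.6% of the KO list and 36% of the WT list. The shared named genes were Dusp2, Dusp1, Clec2d, Rgs1, Edn1, Cebpd, Snord87, Gadd45b and H2aw. Of the 26 genes that fell in KO cells 25 were below 0 in WT, with a median of -1.13 there, and Tlr6 was the exception at 0.13 ± 0.15. The other 16 genes of the WT list were all below 0 in KO cells, with a median of -0.69 in KO and -1.36 in WT (15 of 16 and -0.60 without KO replicate 2). Each median is taken over genes chosen for a fall in 1 genotype, which sets the larger of the 2 values.

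The early change of the 26 genes was then tested between genotypes. The 26 were chosen for a fall in KO cells, and that change is part of the difference. The choice therefore favours differences below 0, and the unadjusted p-values of these genes are not free of it. C9orf72 measured 140, 140 and 134 in WT at 45 min, against 140, 147 and 170 at 0 min, and its difference between genotypes was -0.78 ± 0.25, with the lowest unadjusted p of the 26 (0.00613). Clk1 measured 65.5, 56.9 and 82.2 in WT at 45 min, against 84.4, 59.7 and 156 at 0 min, and differed by -0.93 ± 0.37 (unadjusted p 0.020). Their differences without KO replicate 2 were -0.70 ± 0.28 and -0.84 ± 0.45 (unadjusted p 0.0236 and 0.0840). None of the 26 passed the test of the difference, and 4 had an unadjusted p below 0.05, which were 2 without KO replicate 2. Their differences ranged from -0.97 to 0.08, and from -0.90 to 0.58 without KO replicate 2. At the other end, Dusp2, Dusp1, Rgs1, Edn1, Cebpd and Gadd45b differed by 0.06, 0.06, 0.08, -0.04, 0.03 and 0.04. Such values do not show that the genotypes decay alike, and for Gadd45b the 95% interval of the difference was -0.50 to 0.57.

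Gene lists were described by their counts and medians, with the choice of members made knowing earlier results. Of 14 MAP kinase phosphatases and Sprouty genes 12 were below 0 (median -0.33; 12 and -0.34 without KO replicate 2) and Dusp2 and Dusp1 fell. All 19 NF-kB feedback genes were below 0 (median -0.38, 17 of 19 and -0.33 without KO replicate 2), and Tnfaip3 fell. Immediate early genes, the first to respond to a stimulus, had 19 tested members, of which 16 were below 0 (median -0.49; 14 and -0.36 without KO replicate 2) and none passed. Of 12 SOCS genes and related inhibitors 9 were below 0 (median -0.40; 8 and -0.24 without KO replicate 2) and none passed. All tested genes together had a median of -0.01, with 52.2% below 0 and 0.253% that fell. Over all lists with at least 4 tested members, the largest move of a median on leaving out KO replicate 2 was 0.16, that of the SOCS list. Of the members of the lists described here that fell, Dusp2, Dusp1 and Tnfaip3 also passed without KO replicate 2, and the others did not.

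Histone genes had the lowest median of the lists, -0.64 over 19 members, of which 18 were below 0 and H1f5 fell (H2aw is not on this list). Histone mRNAs of the replication-dependent kind end in a stem-loop in place of a poly(A) tail. Their median was -0.71, -0.93 and -0.14 in pairs 1, 2 and 3, so replicate 3 was apart from the others. It was -0.56 without KO replicate 2, with 18 below 0, and -0.83 in WT cells. Toll-like receptors and their adaptors had 20 of 22 members below 0 (median -0.30; 19 and -0.31 without KO replicate 2), and Tlr6 fell. For these lists too, the shares over all tested genes were 52.2% below 0 and 0.253% that fell. Among 139 numbered zinc finger genes, a family of mostly KRAB repressors, 108 were below 0 (median -0.21, with 102 and -0.21 without KO replicate 2). Of these zinc finger genes Zfp87 and Zfp217 fell. Their medians in pairs 1, 2 and 3 were -0.08, -0.29 and -0.32.

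The lists that follow stand beside 52.2% of all tested genes below 0 and 0.253% that fell. Cytokines had 19 of 22 members below 0 (median -0.24), and Edn1 was the 1 that fell. Chemokines had 14 of 18 below 0 with a median of -0.06, and none passed. Of 24 interferon-stimulated genes 13 were below 0 (median -0.07) and Mx2 fell. Of 23 splicing factors and CLK kinases 17 were below 0 (median -0.18), and Clk1 fell. Of 14 survival and apoptosis regulators 9 were below 0 (median -0.26), and Gadd45b fell. Of 31 deadenylation and decay factors, the machinery that acts downstream of TTP, 24 were below 0 (median -0.16) and none passed. Cnot4, a ubiquitin ligase of the CCR4-NOT complex, had the largest change of these, -0.54 ± 0.20 (-0.59 without KO replicate 2). The numbers below 0 for these 6 lists were 18, 13, 14, 20, 11 and 24 without KO replicate 2, with medians of -0.26, -0.08, -0.08, -0.17, -0.20 and -0.23.

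Respiratory chain genes, whose products make ATP in mitochondria, were above 0 for 59 of 75 members with a median of 0.12, and ribosomal protein genes for 39 of 56 with a median of 0.06. Antigen presentation genes had 12 of 16 members above 0 and a median of 0.14, with Tap1, a peptide transporter subunit, at 0.46 ± 0.24. No member of these 3 lists passed the test. The medians of the respiratory chain list were -0.03, 0.08 and 0.27 in pairs 1, 2 and 3, and those of the ribosomal list -0.02, -0.03 and 0.29, so that pair 3 carried most of the shift. The respiratory chain, ribosomal and antigen presentation lists without KO replicate 2 had 56, 45 and 12 members above 0 and medians of 0.13, 0.14 and 0.13, and Tap1 was at 0.55. When arrays were centred on ribosomal protein genes, the medians of these lists were 0.02, -0.04 and 0.04, since that centring moved every gene by -0.10 at the median.

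**Figure D4:**
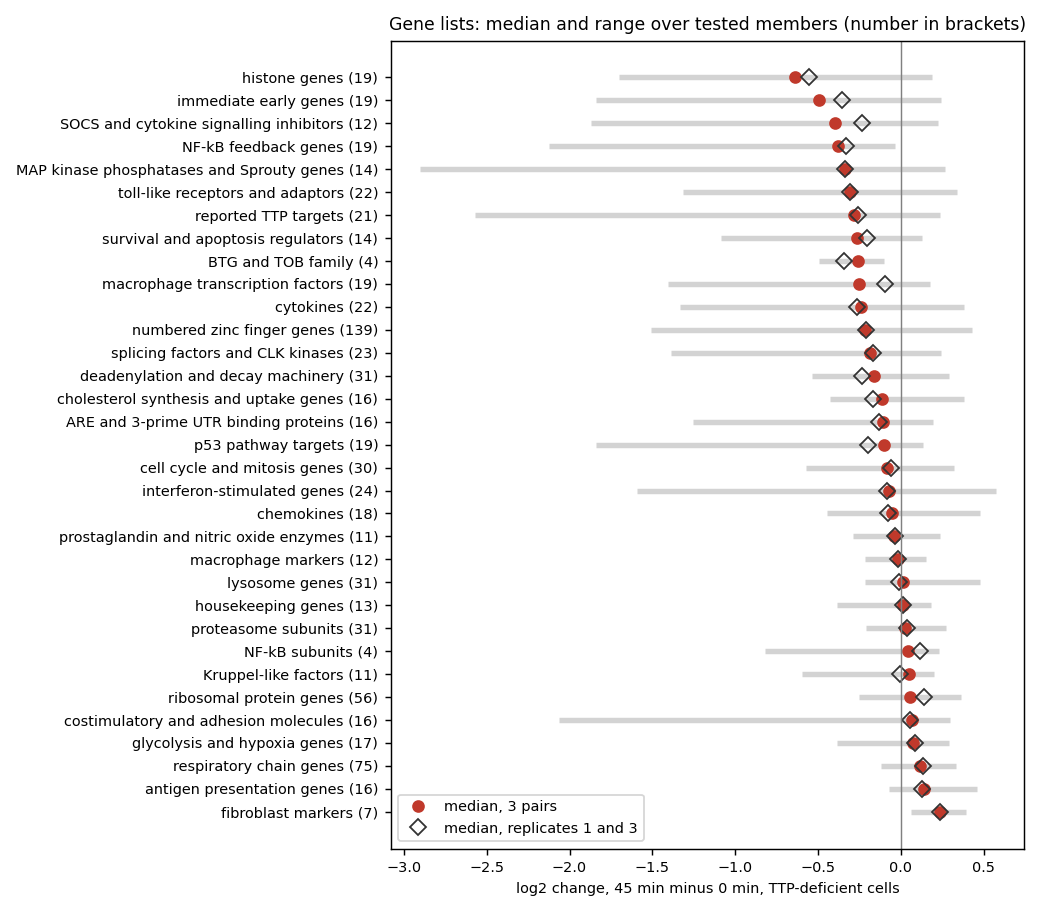
Median log2 change from 0 to 45 min in KO cells for each list with at least 4 tested members, with all 3 pairs (filled) and without replicate 2 (open); grey bars span the lowest to the highest member. Histone genes had the lowest median, -0.64, and fibroblast markers the highest, 0.24.

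The same arrays were followed to 90 min to ask whether the loss went on at the same pace. In replicates 1 and 3 the mean change from 45 to 90 min was below 0 for 23 of the 26 genes, with a median of -0.27, after -1.32 in the first 45 min. In the libraries labelled replicate 2, 1 of the 26 was below 0 and the median was 0.49. The genes were chosen for being low at 45 min, and the 45 min arrays enter both intervals, so the size of the second change is not independent of that choice. Dusp1 was at 24.3, 60.6 and 37.5 at KO 90 min, below its 45 min values of 55.7 and 140 in replicates 1 and 3 and above the value of 17.2 in the library labelled replicate 2. Tnfaip3 was at 103, 299 and 97.6 at KO 90 min, again lower than at 45 min in replicates 1 and 3 only. Dusp2 measured 10.8, 14.5 and 10.4 at KO 90 min, close to the limit of 8.16, and Gadd45b measured 161, 213 and 165, with 47.2% of its 0 min signal left at 45 min. No gene passed the test of the second change minus the first. The lead value for this test was that of Dusp2 at 3.00 ± 0.48 (adjusted p 0.0881), and 2.51 ± 0.61 without KO replicate 2 (adjusted p 0.9996). Unadjusted, 255 genes were higher and 172 lower at p below 0.05.

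**Figure D5:**
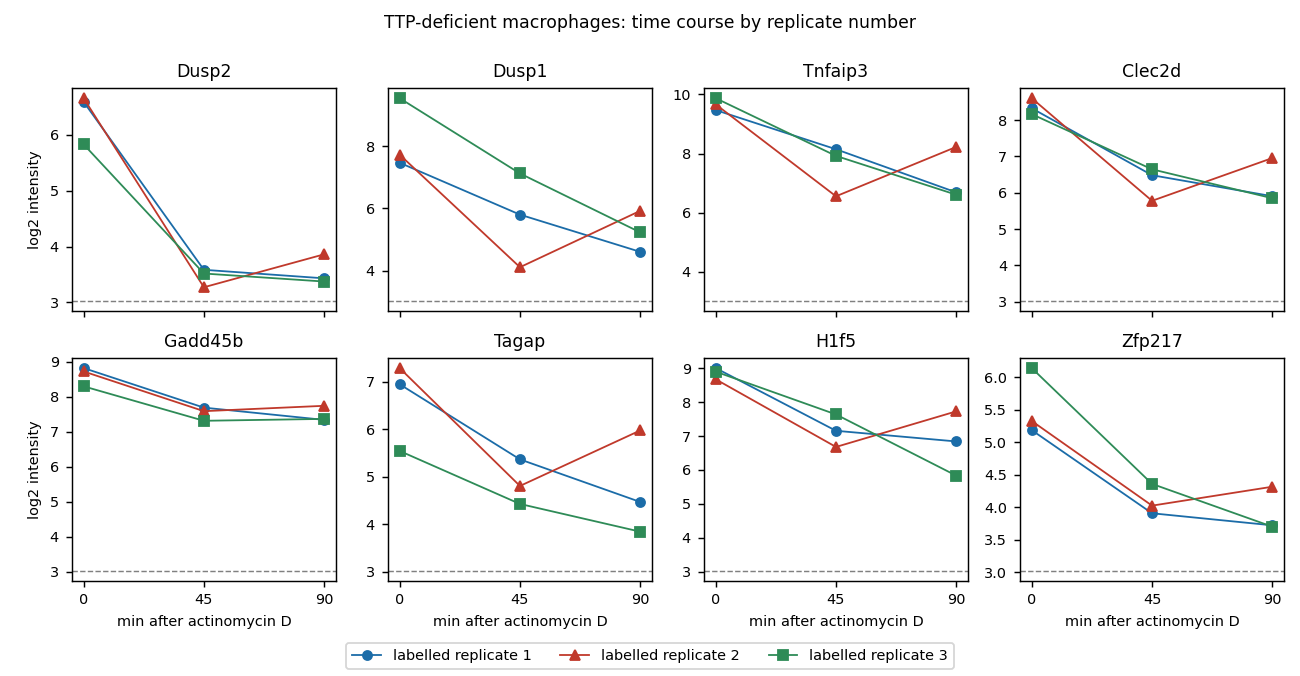
Log2 intensity at 0, 45 and 90 min of 8 genes that fell by 45 min in KO cells, by labelled replicate, with the signal limit of 3.03 dashed. In replicate 1 and replicate 3 Dusp1, Tnfaip3, Clec2d, Tagap and H1f5 were lower at 90 than at 45 min, and in the libraries labelled replicate 2 they were higher.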

How the data were processed

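Total RNA from 18 samples was hybridised by the authors to the Mouse Gene ST array of Affymetrix. RMA was run by the authors in Affymetrix Expression Console, per the submitters' processing notes (versions and build: not given in the sources used here). Values were deposited as linear intensities, with array medians of 7.41 to 8.19, and the file holds no detection calls. Their number, 3 arrays a group, limits the precision.

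Intensities were converted to log2 without an offset. The platform annotation gave 1 symbol to 21039 of 25138 rows, several to 1485 and none to 2614 that it does not list; 84 kept an older symbol. The brightest row per symbol gave 19454 genes, and 10258 with a highest group mean of at least the median row mean (log2 3.03, intensity 8.16) were tested.

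Group means were fitted with limma 3.58.1 (R 4.3.3) over all 18 arrays with the replicate number as a block, and without it for the difference between genotypes. The block gave KO and WT arrays of the same number 1 shared effect, although their numbers were not shown to pair across genotypes. With the block within each genotype, 11 genes fell in KO cells in place of 26. Empirical Bayes moderation and Benjamini-Hochberg adjustment over all tested genes at 0.05 followed; errors are SE from the model, with 10 residual degrees of freedom. Same-numbered arrays deviated together from their group means (correlations 0.321, 0.510 and 0.677 for KO 45 min and 0 min). Numbers were taken to pair the arrays, but this check cannot tell pairing from the runs of title numbers described below. The same replicate number lies in a separate run in every group, and a shift between runs alone could give such correlations. For KO against WT early changes the lowest correlation was 0.079, below the 0.1 required.

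The labels do not say that replicates were separate animals or cultures, and the p-values therefore reflect only how much these arrays vary, in part perhaps technically. The sample numbers in the titles form 2 runs, with replicate 3 of every group in the lower run. With this run as a block 28 genes fell in KO cells in place of 26. With replicates 1 and 2 fitted alone 36 fell, of which 16 were shared with the 26. Members and lists were chosen with earlier results of these data known. Named genes were Zfp36, every gene past the threshold with an established name, up to 4 members of a list past the threshold or those with the largest change, and Tnf, Cxcl1, Cxcl2, Csf2, Il10 and Il6. The procedure was tested on simulated data. Omissions of KO replicate 2 were added after seeing the data. No sequences are shown, since 3' untranslated regions were not analysed here.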

Additional observations from a re-analysis of the deposited data

Results flagged for a closer look

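Tnf was the 1 result for which the early change differed between genotypes by a test of the difference itself. The change was -0.36 in KO and -2.37 in WT, a difference of 2.01 ± 0.26 on the log2 scale (limma, adjusted p 0.00472). The 3 pairs changed by -0.21, -0.56 and -0.30 in KO, against -2.05, -2.24 and -2.83 in WT. These arrays also gave the test by which Tnf was picked, so their separation is no added support. With arrays centred on ribosomal protein or housekeeping genes the difference was 1.85 and 1.84, no longer past the threshold (limma adjusted p 0.293 and 0.740). Without KO replicate 2 the difference was 2.11 ± 0.29 (adjusted p 0.0401).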

How the results depend on the processing

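The 26 genes that fell in KO cells became 5 with no replicate block, 11 with the replicate block within each genotype, 128 with KO arrays only, 291 with the 6 KO arrays of 0 and 45 min only, 15 after log2(value + 8), 66 and 13 when centred on ribosomal protein and housekeeping genes, 4 without KO replicate 2, 10 without it at 45 and 90 min, and 41 with KO replicates 1 and 3 only. Leaving out 1 array gave 2 to 137 genes that fell and 0 to 4 that rose, with 2 without KO 0 min replicate 1, 3 without KO 45 min replicate 2 or 3, 5 and 7 without KO 0 min replicate 2 or 3, 11 to 15 without a WT 45 min array, WT 90 min replicate 1 or KO 45 min replicate 1, 58 without KO 90 min replicate 2 and 137 without WT 0 min replicate 3. The 0 that rose became 9 with KO arrays only, 19 with the KO arrays of 0 and 45 min only, 1 with KO replicates 1 and 3 only and 1 after quantile normalization.

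In WT the 25 that fell became 13 with no replicate block, 47 with replicates 1 and 2 only and 7 when centred on housekeeping genes, and 8 to 139 without 1 array. The 1 that rose became 340 with replicates 1 and 2 only, 2 after quantile normalization, 0 with no replicate block, the block within genotype, no filter, the offset, housekeeping centring or the robust fit, and 0 to 817 without 1 array (817 without WT 0 min replicate 3).

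For the difference between genotypes the replicate block left 1 gene, Tnf; centring on ribosomal protein or housekeeping genes left 0. Without KO replicate 2 and WT 0 min replicate 3, 2 were higher (Tnf and Zfp36, 2.09) and 1 lower. Leaving out 1 array gave 1 higher throughout and 0 to 79 lower (79 without WT 0 min replicate 3). For the second change minus the first, the 0 genes higher became 1 with the title-number run as a block, 2 with replicates 1 and 2 only, 1 with KO arrays only and 1 with ribosomal centring, and 0 to 1 without 1 array. The cause of these moves was not tested. Over the 24 named genes and 36 alternatives no direction reversed, and 564 of 864 calls held.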

Other observations

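The fit to the 9 KO arrays alone, which estimates the spread without the WT arrays, called 128 genes lower and 9 higher; the genes named here were picked after their values were seen. Of the 128, 34 were also called in the fit to replicates 1 and 3. Of 139 tested numbered zinc finger genes, 18 (12.9%) were among the 128, where 1.25% of all tested genes were, and 2 passed in the fit to all 18 arrays. In the fit to replicates 1 and 3 alone 4 of the 139 fell, where 0.4% of all tested genes did. None of the 139 fell when KO replicate 2 was left out of the 18 arrays (0.039% of all tested genes). Some of the 18 ended below the signal limit of 8.16, such as Zfp52 with 4.82, 4.41 and 5.37 at KO 45 min. Single genes of the 128, picked by hand from others of like function and standing for no tested list, were Setd2, a histone methyltransferase, at -0.96 ± 0.20, Kdm3a, a histone demethylase, at -0.69 ± 0.14, Eed, a subunit of the Polycomb complex PRC2, at -0.74 ± 0.14, Tet3, an oxidase of methylated DNA, at -0.66 ± 0.15 and the deacetylase Sirt1 at -0.81 ± 0.17 (limma adjusted p 0.0365, 0.0391, 0.0260, 0.0469 and 0.0435). None of these 5 passed in the fit to all 18 arrays.

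The 9 genes called higher were Nlrc5, C2cd4a, Gtpbp2, Lyrm2, Abca7, Dpep3, Nlrx1, Mllt6 and Tmem63b. Nlrc5, the transactivator of MHC class I genes, measured 84.5, 83.2 and 46.3 at KO 45 min, against 32.5, 55.1 and 28.0 at KO 0 min. All 3 pairs were higher, by 1.38, 0.59 and 0.72 (9-array adjusted p 0.0210), and it was also the 1 gene that rose with replicates 1 and 3 alone. In WT cells its change was 0.97 ± 0.22 (adjusted p 0.0941).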
